A study of Mus musculus with 6 samples.

Results

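The genes described here encode 10 factors that silence heterochromatin and retroelements: Trim28, Zfp57, Setdb1, Atf7ip, Suv39h1, Ehmt2, Cbx3, Cbx5, Daxx and Atrx. They were taken by gene symbol, not by a cut on their values, from a table of 17912 genes, and all 10 were present. Earlier results of these data were known when the 10 were chosen. The table came from poly(A) RNA of 6 libraries. Their labels name mouse embryonic stem cells (ESCs), which are pluripotent cells of the early embryo grown in culture. Of these, 3 are wild-type controls (1, 2 and 3) and 3 are knockdowns of EXOSC2, each a clone with a short hairpin RNA against it (clones 5, 6 and 7). EXOSC2 belongs to the RNA exosome, which degrades and trims RNA from its 3′ end. The labels do not say whether the controls carried a control hairpin, whether controls and clones share a parental line, or whether libraries of a group came from separate cultures. The p-values therefore measure only the spread between these libraries, which may be technical.

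In ESCs, long stretches of the genome, many of them retroelements and repeats, are held silent by nucleosomes methylated on lysine 9 of histone H3 (H3K9). KRAB zinc finger proteins such as ZFP57 bind specific DNA and recruit the scaffold TRIM28 (KAP1), which brings in the H3K9 methyltransferase SETDB1 with its partner ATF7IP. SUV39H1 and G9a (encoded by Ehmt2) are further H3K9 methyltransferases, HP1 proteins (encoded by Cbx1, Cbx3 and Cbx5) bind the methylated tail, and ATRX with DAXX deposits histone H3.3 there.

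All 10 members had an entry in the RefSeq promoter table (GRCm38.p6), which gives 250 bases before to 50 after a transcription start. There were 18 such windows for the members. Taking for each member the RefSeq start nearest to the annotated 5′ end of the gene, the members held a median of 25.5 CG dinucleotides per window. For Trim28 and Atf7ip that nearest window lay well inside the annotated gene. The windows began at 13023902 and 136518601, and the genes at 12999114 and 136506167. Over all 32851 windows the median was 7, with quartiles of 3 and 20. That set holds several starts for some genes and was not limited to expressed genes, so the medians cover unlike sets. The windows of 3 members are printed because these genes differ in what follows and in CG content: Trim28 fell most, Suv39h1 rose, and Zfp57 is the member poorest in CG. CG dinucleotides are in capitals, and each line runs 5′ to 3′ on the strand of its gene. The windows are chr7:13023902-13024201 on the plus strand for Trim28, chrX:8074711-8075010 on the minus strand for Suv39h1 and chr17:37000913-37001212 on the plus strand for Zfp57.
Trim28: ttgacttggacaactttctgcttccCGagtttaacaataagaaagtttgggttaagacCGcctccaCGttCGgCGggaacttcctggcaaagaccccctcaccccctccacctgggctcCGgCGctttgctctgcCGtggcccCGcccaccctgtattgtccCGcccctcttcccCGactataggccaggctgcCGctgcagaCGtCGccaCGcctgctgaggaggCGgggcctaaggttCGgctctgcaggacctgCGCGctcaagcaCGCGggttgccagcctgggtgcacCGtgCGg
Suv39h1: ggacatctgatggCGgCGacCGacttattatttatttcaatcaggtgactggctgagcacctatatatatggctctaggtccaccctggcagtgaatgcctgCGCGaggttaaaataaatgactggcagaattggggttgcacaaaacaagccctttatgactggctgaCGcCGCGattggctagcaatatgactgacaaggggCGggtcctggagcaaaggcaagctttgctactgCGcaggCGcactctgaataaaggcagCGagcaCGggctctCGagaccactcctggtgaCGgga
Zfp57: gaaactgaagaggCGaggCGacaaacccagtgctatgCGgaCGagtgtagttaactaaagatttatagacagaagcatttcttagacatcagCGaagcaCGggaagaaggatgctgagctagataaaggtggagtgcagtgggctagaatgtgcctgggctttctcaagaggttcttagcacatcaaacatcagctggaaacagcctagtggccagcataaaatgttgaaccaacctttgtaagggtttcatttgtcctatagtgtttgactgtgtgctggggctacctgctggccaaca
The Trim28 window held 23 CG, that of Suv39h1 held 15 and that of Zfp57 held 6. The other Zfp57 starts had 4 and 9, and 56.5% of all windows had 9 or fewer. The windows of the other 9 members at their nearest starts held from 11 to 34. The motif TATAAA, searched on both strands (TTTATA when read on the gene strand) and sharing no letters with CG, was present in 13.6% of all windows. Among the 18 member windows it was found in 1, the Zfp57 window printed above, where it reads as TTTATA. These matches describe the letters of the windows and are not mapped binding sites.

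Levels are read counts scaled between libraries, and group values are means ± SD (n = 3 libraries). Log2 fold changes compare clones with controls after adding 1 to each scaled count, and carry the SE and 95% interval of limma. A gene was called changed at a Benjamini-Hochberg adjusted p under 0.05 over 15179 genes with a mean of at least 10. Depth was 21107761 to 24633836 reads in the controls and 24268430 to 26494985 in the clones. The targeted gene Exosc2 measured 2457, 2473 and 1954 in controls 1, 2 and 3 and 1138, 997 and 981 in clones 5, 6 and 7, so the clones kept 45.3% of the control level (adjusted p = 5.1e-05 in limma). With 3 libraries on each side, no exact two-sided permutation p can be lower than the 0.1 obtained for Exosc2. The labelled cell type was checked on markers: of 15 pluripotency markers, 13 were lower and 2 higher in the clones. Zfp42, Dppa3 and Utf1 were at 0 in all 3 clones, and the 2 that rose were Pou5f1 (21045 ± 4721 to 91114 ± 2227) and Klf4 (2415 ± 82.0 to 14169 ± 2032). The summed level of the 15 was 134461 to 147276 in the controls and 105683 to 116154 in the clones, where Pou5f1 made up most of it. Of the 13 lower, Nanog (9698 to 0.674), Esrrb (16546 to 2.27), Tdgf1 (24959 to 1.94) and Lin28a (6999 to 0.923) were nearly absent in the clones. Sox2 (11834 to 2805) and Fgf4 (3437 to 1663) fell less. Of 13 tested fibroblast markers, 12 were higher and 1 lower, and the summed level of the 14 listed was 10376 to 11931 in the controls and 56239 to 72283 in the clones. None of these 14 was at 0 in all clones. The summed neural markers were at 2468 to 3102 in the controls and 7994 to 8540 in the clones (3 of 6 higher, 3 lower, with Sox1, Pax6 and Olig2 at 0 in the clones). Those of primitive endoderm were at 346 to 409 and 1212 to 1932 (1 of 3 higher, 1 lower, Sox17 at 0). For surface epithelium the sums were 26122 to 39527 and 29946 to 32501 (5 of 9 higher, 4 lower). Among the higher were Ehf (1.69 to 16997) and Krt6a (0 to 3657). The 4 lower were Cdh1 (15794 to 982), Epcam (5922 to 1006), Krt18 (2967 to 311) and Elf3 (4332 to 524). For endothelium the sums were 2173 to 2626 and 414 to 485 (1 of 4 higher, 2 lower), and for trophoblast 4009 to 5290 and 1090 to 1328 (4 of 5 lower, Cdx2 at 0). For blood cells they were 2107 to 2611 and 2007 to 2462 (2 of 3 higher, 1 lower, Cd3e at 0). The ESC label is thus not matched by most of the pluripotency markers in the clones. With these groups cell type and knockdown cannot be told apart, and the part of cell type in the results below was not tested. In bulk RNA, fewer cells of a type and less RNA per cell cannot be told apart.

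All 10 silencing factor genes were tested, and 7 changed: Trim28, Setdb1, Daxx, Zfp57 and Cbx3 were lower in the clones and Suv39h1 and Atrx higher. Atf7ip, Ehmt2 and Cbx5 did not pass the test. The whole transcriptome differed so widely that 73.5% of all tested genes were called, 35.2% higher and 38.3% lower, so 7 of 10 is near the background. The size of the changes was small for all members but Trim28. It was the only member called with a change of at least 2-fold, against 48.1% of all tested genes. The median absolute log2 fold change was 0.45 over the 10 members and 0.96 over all tested genes. The members are well expressed, with means over the 6 libraries from 1374 to 18387. Among the 5614 genes with a mean of at least 1000, a threshold chosen after the values were seen, 75.1% were called and 36.5% were called with at least 2-fold, and the median absolute log2 fold change was 0.72. Signed, the members' median was -0.32 and that of all tested genes -0.07, with quartiles of -1.06 and 0.87. Control and clone values did not overlap for 7 members, beside 77.3% of all tested genes.

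**Figure D1:**
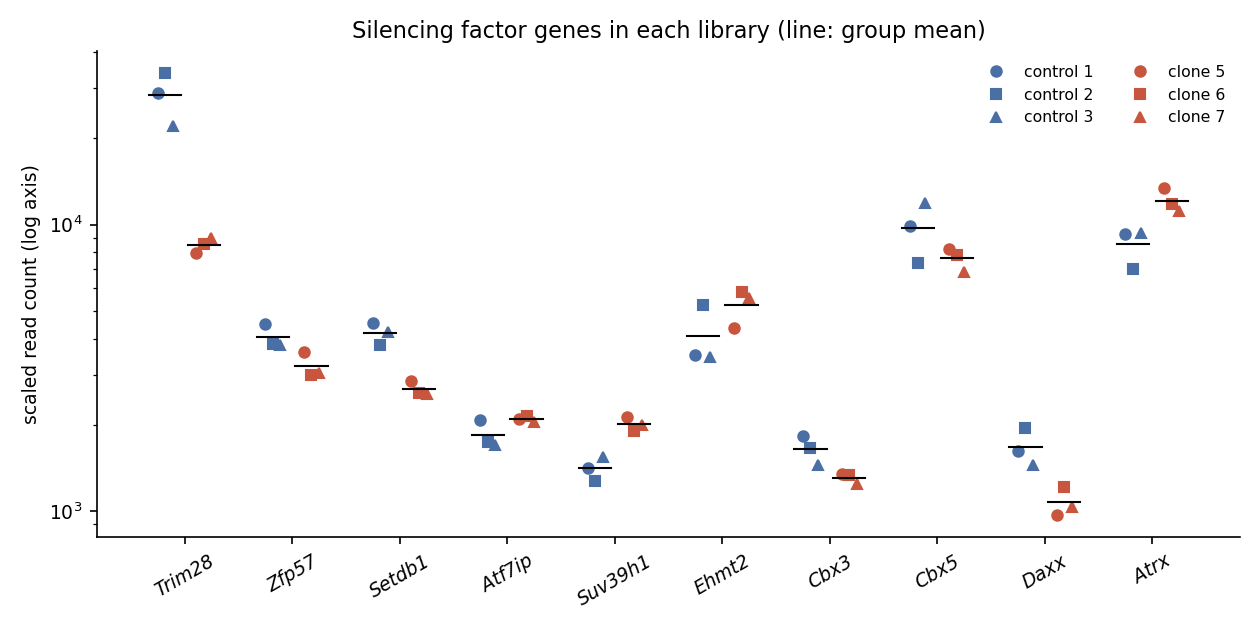
Scaled read count (log axis) of the 10 silencing factor genes in each of the 6 libraries, controls in blue and clones in red, with a line at each group mean. Trim28 separates the groups most widely (22163 to 33854 in the controls, 7957 to 8952 in the clones), while the groups of Atf7ip, Ehmt2 and Cbx5 overlap.

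The scaffold of the KRAB zinc finger pathway, Trim28 (ENSMUSG00000005566.13, chromosome 7, positions 12999114 to 13031035, plus strand, GRCm38), fell most. It measured 28813, 33854 and 22163 in controls 1, 2 and 3, and 7957, 8582 and 8952 in clones 5, 6 and 7. The 3 clones lay close together, and the highest of them was well under the lowest control. The mean went from 28276 ± 5864 to 8497 ± 503, so the clones kept 30.1%. Its log2 fold change was -1.71 ± 0.15 (95% interval -2.07 to -1.36), with an adjusted p of 1.2e-05 in limma. Of all tested genes 17.4% had a lower log2 fold change, and Trim28 had a higher mean level than 99.4% of them. The call held under all 17 alternative settings and left-out libraries, with log2 fold changes from -1.88 to -1.53. On the opposite strand Zbtb45 overlaps 6137 bases of the gene, and its means were 345 and 418 in the controls and the clones.

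Zfp57, the KRAB zinc finger gene whose protein keeps DNA methylation at imprinted loci, fell slightly (ENSMUSG00000036036.15, chromosome 17, positions 37001163 to 37010635, plus strand). Its values were 4484, 3837 and 3796 in controls 1, 2 and 3, and 3604, 2992 and 3047 in clones 5, 6 and 7. Control 1 and clone 5 were the high libraries of their groups, and the gap between clone 5 and control 3 was small. The mean went from 4039 ± 386 to 3214 ± 339, a log2 fold change of -0.33 ± 0.12 (interval -0.60 to -0.06), with an adjusted p of 0.0299 in limma. This call was lost when control 1 (-0.25), clone 6 (-0.28) or clone 7 (-0.29) was left out. It was also lost with eBayes without a trend, where the log2 fold change was -0.33 and the adjusted p 0.0689. With quantile normalization it was -0.50 (adjusted p = 0.00308).

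Setdb1, the methyltransferase that TRIM28 recruits, also fell (ENSMUSG00000015697.14, chromosome 3, positions 95323525 to 95357202, minus strand). It measured 4552, 3801 and 4216 in controls 1, 2 and 3, and 2846, 2587 and 2572 in clones 5, 6 and 7. No clone reached the lowest control, control 2. The clones kept 63.7% of the control mean (4190 ± 377 to 2668 ± 154), with a log2 fold change of -0.65 ± 0.11 (interval -0.89 to -0.41) and an adjusted p of 5.0e-04 in limma. The ratio of Trim28 to Setdb1, both per kb of summed exon length, was 10.4, 14.7 and 8.66 in controls 1, 2 and 3, and 4.61, 5.47 and 5.74 in clones 5, 6 and 7. Trim28 RNA was thus lower relative to Setdb1 RNA in every clone than in every control (exact permutation p = 0.1, two-sided, Benjamini-Hochberg adjusted 0.114 over 8 such comparisons of shares and ratios). The neighbour Cers2 overlaps 75 bases of Setdb1 on the other strand, and its mean went from 1160 to 6199.

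Atf7ip, which encodes the partner that stabilises SETDB1, did not pass the test (ENSMUSG00000030213.12, chromosome 6, positions 136506167 to 136610862, plus strand). It measured 2087, 1743 and 1697 in controls 1, 2 and 3, and 2099, 2149 and 2041 in clones 5, 6 and 7. Control 1 lay within the range of the clones and the other controls below it. The log2 fold change was 0.19 ± 0.11 (interval -0.06 to 0.45), with an adjusted p of 0.150 in limma. Without control 1 it was 0.28 and called (adjusted p = 0.0315). The median log2 fold change of all tested genes on chromosome 6 was 0.41, and with the chromosome medians subtracted Atf7ip had -0.19, again not called.

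Of the H3K9 methyltransferase genes outside this complex, Suv39h1, whose product methylates pericentromeric heterochromatin, rose (ENSMUSG00000039231.18, chromosome X, positions 8061171 to 8074760, minus strand). It measured 1413, 1271 and 1545 in controls 1, 2 and 3, and 2125, 1907 and 1995 in clones 5, 6 and 7. All clones were above all controls. The mean went from 1410 ± 137 to 2009 ± 110, or 143% of the control mean. Its log2 fold change was 0.51 ± 0.11 (interval 0.26 to 0.77), and the adjusted p in limma was 0.00278. The antisense gene Gm14820 covers 13449 bases of it and measured 41.8 and 14.2, far under Suv39h1 itself.

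Ehmt2, which encodes the euchromatic H3K9 methyltransferase G9a, was higher on average in the clones but did not pass the test (ENSMUSG00000013787.15, chromosome 17, positions 34898469 to 34914052, plus strand). It measured 3520, 5263 and 3444 in controls 1, 2 and 3, and 4348, 5839 and 5559 in clones 5, 6 and 7. Control 2 was far above the other controls and above clone 5, so the groups overlapped. The log2 fold change was 0.38 ± 0.18 (interval -0.04 to 0.80), with an adjusted p of 0.0904 in limma. Without control 2 it was 0.58 and called (adjusted p = 0.0076), and without clone 5 it was 0.51 and called (adjusted p = 0.0466). It was 0.27 without control 3 and 0.22 with quantile normalization, not called in either.

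Among the HP1 genes, Cbx3, which encodes HP1γ, fell (ENSMUSG00000029836.15, chromosome 6, positions 51470360 to 51483704, plus strand). It measured 1824, 1661 and 1450 in controls 1, 2 and 3, and 1345, 1338 and 1246 in clones 5, 6 and 7. The lowest control, control 3, was not far above clone 5. The mean went from 1645 ± 187 to 1310 ± 55.0, a log2 fold change of -0.32 ± 0.12 (interval -0.59 to -0.06), and the adjusted p in limma was 0.0329. The call was lost under 7 of the 17 alternatives, among them every left-out library but control 3. The values were -0.25 without control 1, -0.31 without control 2, and -0.34, -0.34 and -0.29 without clones 5, 6 and 7. It was lost as well with eBayes without a trend (-0.32), and after removing the GC trend described below (-0.24). The fall was larger with quantile normalization (-0.54, adjusted p = 0.00236) and with chromosome medians subtracted (-0.71, adjusted p = 8.1e-04), chromosome 6 having a median of 0.41. The annotation holds 8 processed pseudogenes of Cbx3, near copies of its spliced RNA, of which 1 is in the table, so reads could be divided between them and the Cbx3 level is uncertain.

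Cbx5, which encodes HP1α, did not pass the test (ENSMUSG00000009575.14, chromosome 15, positions 103191544 to 103239816, minus strand). It measured 9897, 7322 and 11889 in controls 1, 2 and 3, and 8226, 7864 and 6857 in clones 5, 6 and 7. Control 2 lay within the range of the clones, and the other controls lay above it. The log2 fold change was -0.32 ± 0.17 (interval -0.71 to 0.08), with an adjusted p of 0.125 in limma. It was called without control 2 (-0.51, adjusted p = 0.00857), with quantile normalization (-0.45, adjusted p = 0.0395) and with chromosome medians subtracted (-0.58, adjusted p = 0.0179), the median on chromosome 15 being 0.30. Without control 3 the value was -0.16 (adjusted p = 0.366).

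The histone chaperone pair of the H3.3 pathway moved in opposite directions. Daxx, the chaperone that carries H3.3, fell (ENSMUSG00000002307.15, chromosome 17, positions 33909414 to 33915590, plus strand). It measured 1622, 1946 and 1451 in controls 1, 2 and 3, and 971, 1216 and 1035 in clones 5, 6 and 7. Control 2 and clone 6 were the high libraries of their groups, and no clone reached the lowest control. The clones kept 64.2% of the control mean (1673 ± 251 to 1074 ± 127), with a log2 fold change of -0.63 ± 0.14 (interval -0.96 to -0.31) and an adjusted p of 0.00343 in limma.

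Atrx, the chromatin remodeller that works with DAXX, rose (ENSMUSG00000031229.16, chromosome X, positions 105797615 to 105929403, minus strand). It measured 9281, 6995 and 9368 in controls 1, 2 and 3, and 13377, 11776 and 11125 in clones 5, 6 and 7. Control 2 was the low control, and every clone was above every control. The mean went from 8548 ± 1345 to 12093 ± 1159, or 141% of the control mean. Its log2 fold change was 0.51 ± 0.14 (interval 0.19 to 0.83), with an adjusted p of 0.00932 in limma. Atrx and Suv39h1 both lie on the X chromosome, where the median log2 fold change of tested genes was -0.10. Daxx, Ehmt2 and Zfp57 all lie on chromosome 17, where the median was 0.07, and had log2 fold changes of -0.63, 0.38 and -0.33.

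Besides Trim28, the calls of Setdb1, Suv39h1, Daxx and Atrx held under all 17 alternatives. Their log2 fold changes ranged from -0.82 to -0.47 for Setdb1 and from 0.31 to 0.60 for Suv39h1. They ranged from -0.85 to -0.52 for Daxx and from 0.37 to 0.60 for Atrx. The 0.31 of Suv39h1 and the -0.85 of Daxx came from quantile normalization, so these sizes depend on the scaling. Every scaling used was computed from the genes of the table, of which 73.5% of those tested were called. A shift shared by most genes was therefore not tested by these alternatives.

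**Figure D2:**
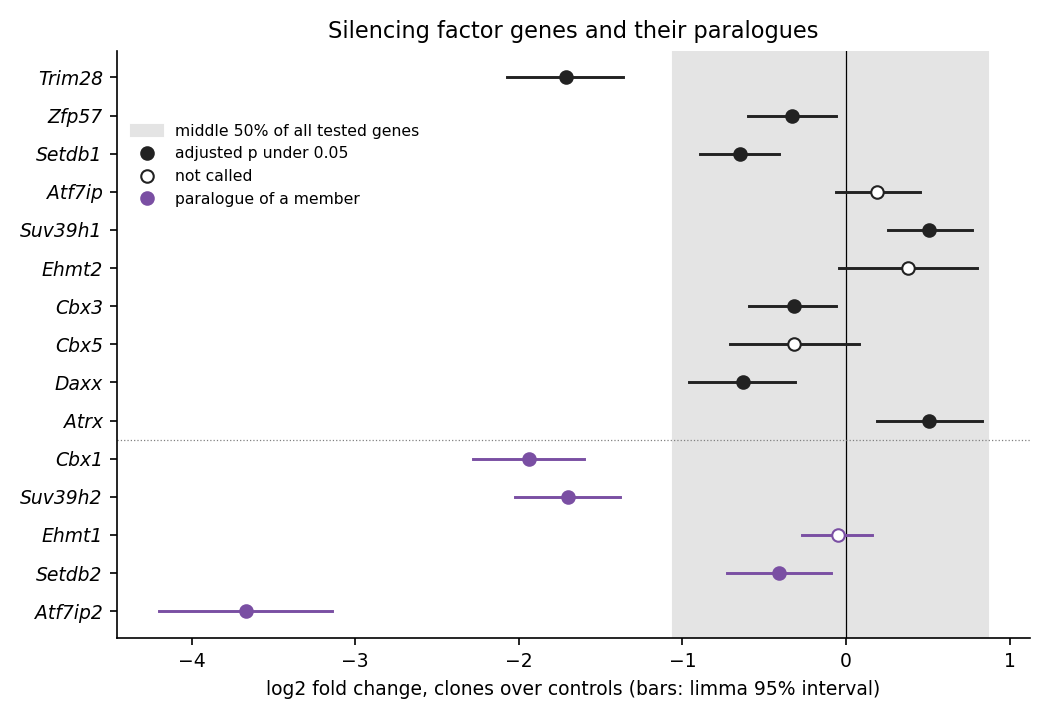
Log2 fold change of clones over controls with its 95% limma interval, for the 10 silencing factor genes (black) and 5 paralogues (purple), filled where the adjusted p was under 0.05; the grey band spans the quartiles of all tested genes (-1.06 to 0.87). Of the 10, only Trim28 lies outside the band, while the paralogues Cbx1, Suv39h2 and Atf7ip2 lie below it.

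Part of the spread among the controls followed the GC content of the transcripts. In the trend over all genes, transcripts of 60% GC deviated from their mean over the 6 libraries by 0.315 on the log2 scale in control 2, by -0.264 in control 1 and by -0.158 in control 3. At 40% GC the sign was reversed in each of these libraries (-0.15, 0.155 and 0.102). In the clones the trend at 60% GC was -0.131, 0.200 and 0.145 in clones 5, 6 and 7. Ehmt2 (60.8% GC), Trim28 (59.6%) and Daxx (56.3%) were the 3 members highest in control 2 among the controls, with deviations from the control mean of 0.40, 0.28 and 0.23 on the log2 scale. Cbx5 (42.6% GC) and Atrx (39.5%) deviated there by -0.38 and -0.28. With the trend removed, an alternative added after the data were seen, Ehmt2 had a log2 fold change of 0.30 and was called (adjusted p = 0.00525 in limma). Of the 7 calls, only that of Cbx3 (38.7% GC) was lost.

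**Figure D3:**
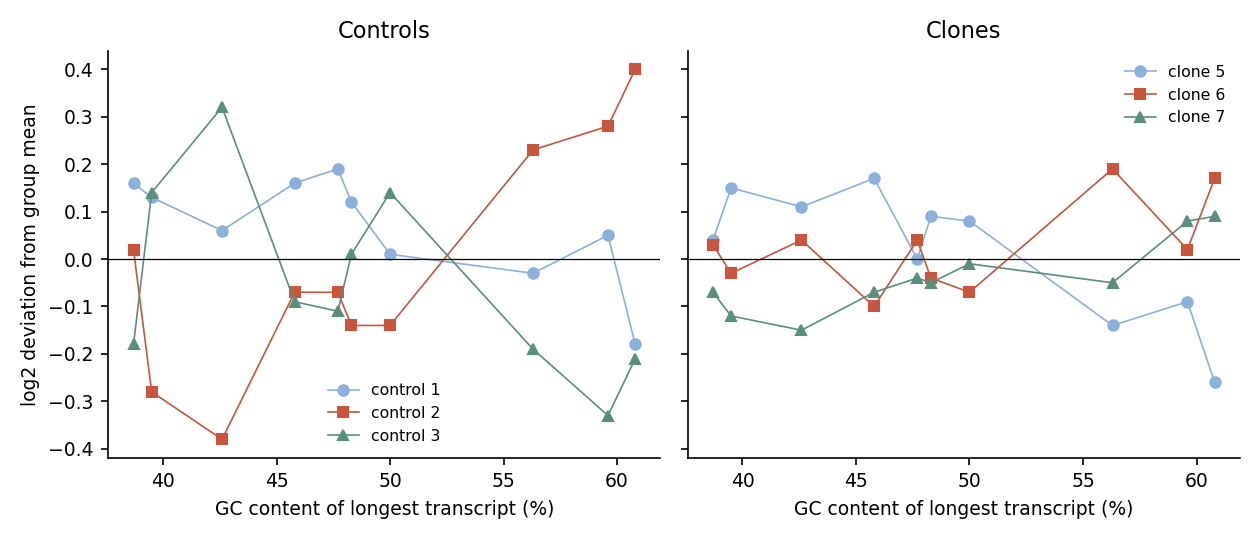
Deviation of each silencing factor gene from its group mean on the log2 scale against the GC content of its longest transcript (%), by library, for controls (left) and clones (right); lines join the genes of 1 library. In control 2 the 3 members richest in GC (Ehmt2, Trim28 and Daxx) lie from 0.23 to 0.40 above the mean and Cbx5 lies at -0.38.

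The closest paralogues of the members were read next, since related proteins can share a role. Cbx1, which encodes HP1β, fell from 10710, 9043 and 7069 in controls 1, 2 and 3 to 2377, 2327 and 2175 in clones 5, 6 and 7, a log2 fold change of -1.94 ± 0.15 (adjusted p = 4.4e-06 in limma). Suv39h2 fell from 1551, 1259 and 1252 to 456, 414 and 375, a log2 fold change of -1.70 ± 0.14 (adjusted p = 6.4e-06). Atf7ip2 fell from 416, 284 and 381 to 27.9, 30.8 and 23.1, a log2 fold change of -3.67 ± 0.23 (adjusted p = 1.4e-06). In each of these 3 families the paralogue fell by more than 3-fold while the member or members beside it changed by less than 2-fold. Setdb2, a relative of Setdb1, fell by 0.41 on the log2 scale (SE 0.14, adjusted p = 0.0259), a call lost when control 1 (-0.32) or clone 5 (-0.45), 6 (-0.42) or 7 (-0.36) was left out, and its value was 0.17 with chromosome medians subtracted. Ehmt1, which encodes the G9a partner GLP, measured 1871, 1909 and 1887 in the controls and 1785, 1899 and 1778 in the clones, and did not pass the test (-0.05 ± 0.09, interval -0.27 to 0.16, adjusted p = 0.615).

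The make-up of each family was computed within a library from scaled counts per kb of summed exon length. Cbx1 made up 64.1%, 66.0% and 51.4% of the HP1 sum in controls 1, 2 and 3, and 32.8%, 33.2% and 34.4% in clones 5, 6 and 7. Cbx5 went from 28.1%, 25.4% and 41.0% to 53.9%, 53.2% and 51.5%, so that it was above Cbx1 in all 3 clones and below it in all 3 controls. That order depends on the length used: per kb of the longest transcript Cbx1 and Cbx5 stood at 965 ± 44.1 and 869 ± 80.6 in the clones, and per kb of coding sequence Cbx5 had the higher mean in both groups (16933 against 16109 in the controls). Cbx3 went from 7.99% ± 0.586 to 13.6% ± 0.410. The HP1 sum itself went from 3444 ± 403 to 1605 ± 112 scaled counts per kb, which is 46.6% of the control sum. The Cbx5 share thus went up as the Cbx1 level fell, while the mean level of Cbx5 itself was lower in the clones.

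Suv39h1 made up 43.3%, 45.8% and 50.8% of the SUV39H sum in controls 1, 2 and 3, and 79.6%, 79.4% and 81.6% in clones 5, 6 and 7. The SUV39H sum per kb was 575 ± 46.6 in the controls and 475 ± 27.3 in the clones. Atf7ip made up 54.6% ± 3.99 of the sum with Atf7ip2 in the controls and 94.7% ± 0.593 in the clones. The share of Setdb1 in the sum with Setdb2 moved little, from 81.7% ± 0.927 to 79.1% ± 0.630. For each of these shares the groups did not overlap, and the exact permutation p was 0.1 (two-sided, adjusted 0.114), as low as this design allows. The share of Ehmt2 in the sum with Ehmt1 was 75.6% ± 4.08 and 80.8% ± 2.21, with overlapping groups (exact permutation p = 0.2, adjusted 0.2).

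**Figure D4:**
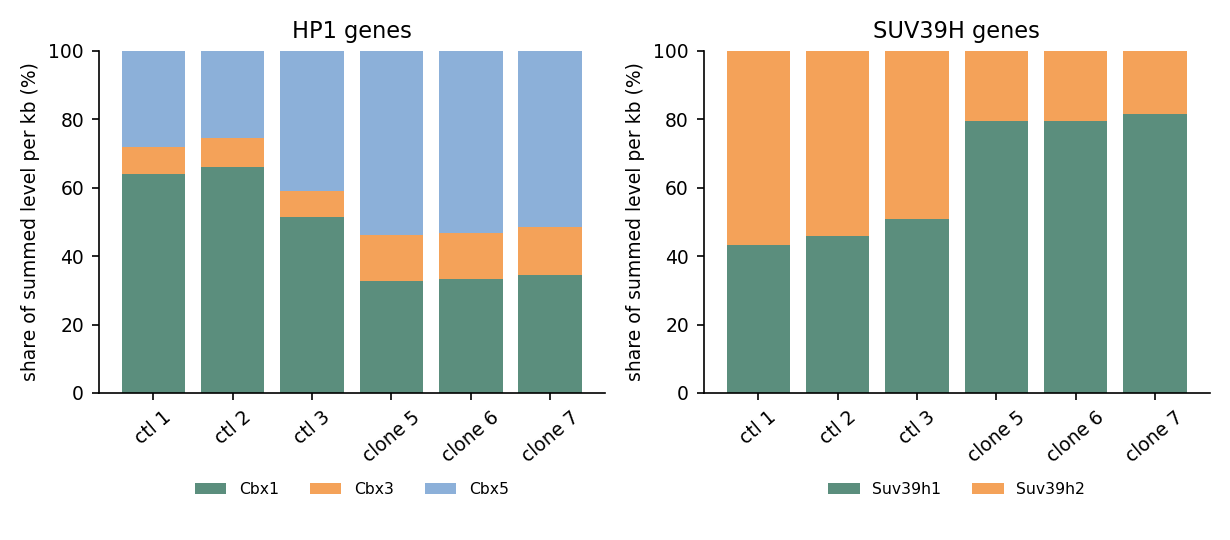
Share (%) of each gene in the summed scaled count per kb of its family in each library, for the 3 HP1 genes (left) and the 2 SUV39H genes (right). Cbx1 makes up 51.4% to 66.0% in the controls and 32.8% to 34.4% in the clones, and Suv39h1 43.3% to 50.8% and 79.4% to 81.6%.

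Compared between genes per kb of summed exon length, the levels formed the following order in the controls. Trim28 stood alone at 6800 ± 1410 scaled counts per kb. Cbx5 (1077 ± 254) and Zfp57 (1067 ± 102) overlapped, followed by Ehmt2 at 743 ± 187, Setdb1 at 611 ± 54.9 and Daxx at 531 ± 79.8, each overlapping its neighbour in that trio. Cbx5 also overlapped Ehmt2, with its lowest control at 813 and the highest Ehmt2 control at 959. Atrx stood apart at 393 ± 61.8, Cbx3 (275 ± 31.3) and Suv39h1 (267 ± 26.0) overlapped, and Atf7ip was lowest at 88.9 ± 10.3. In the clones Trim28 was still first, at 2044 ± 121, and Atf7ip still last, between 98.5 and 104. Ehmt2 (956 ± 144), Cbx5 (849 ± 78.8) and Zfp57 (849 ± 89.5) followed Trim28 with overlapping values, and Atrx stood alone at 556 ± 53.3. Setdb1 (389 ± 22.5), Suv39h1 (381 ± 20.8) and Daxx (341 ± 40.4) overlapped in order, above Cbx3 at 219 ± 9.17. This order depends on the length used: per kb of coding sequence Cbx5 came before Trim28 in both groups (16933 and 11302 in the controls). The summed exons of Atrx and Atf7ip are 21757 and 20726 bases long, against 10275 and 8059 for their longest transcripts.

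The 3 genes whose values over the 6 libraries were most like those of Trim28 were Fancf, Apex1 and Phpt1. The measure was the Euclidean distance between log2 deviations from each gene's own control mean, over 15178 other genes. The distances were 0.154, 0.185 and 0.194, and the log2 fold changes of these genes -1.79, -1.70 and -1.71. Because the measure includes the difference between the groups, fold changes near that of Trim28 follow from the choice. Fancf belongs to the Fanconi anaemia core complex, and Apex1 is the main apurinic endonuclease of base excision repair.

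A further 7 lists of silencing factors and genes tied to them, among these the H3K9 demethylases that remove the mark, place the members among related genes. They hold 82 tested genes, of which 39 were lower, 16 higher and 27 not called, with a median log2 fold change of -0.28 (-0.45 with quantile normalization). Over all tested genes 38.3% were lower, 35.2% higher and 73.5% called in either direction, so the share called in these lists was not above the background. Without the 10 members, 34 of 72 were lower, 14 higher and 24 not called, and 32 were called with at least 2-fold, beside 48.1% of all tested genes. Named genes are the 3 with the smallest p in each list, unless said to be chosen after their values were seen.

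In the list of the TRIM28 complex and chromatin assembly, 15 of 24 tested genes were lower, 3 higher and 6 not called, with a median of -0.66. Over all tested genes 73.5% were called and 38.3% were lower. Besides Trim28, Setdb1 and Zfp57, the lower genes included Chaf1b, a subunit of the replication-coupled histone chaperone CAF-1 (2910 ± 128 to 984 ± 61.5). Zfp568, a KRAB zinc finger gene, went from 3820 ± 551 to 1036 ± 63.9. The SUMO-activating enzyme gene Sae1 (-1.28) was also lower, and Sumo3 (0.49), Senp7 (1.53) and Zfp961 (0.48) were the 3 that rose, all chosen after their values were seen. In the list of HUSH and MORC genes, whose products repress retroelements, 4 of 7 were lower, 1 higher and 2 not called, with a median of -0.87. Mphosph8 and Fam208a, which encode the HUSH subunits MPP8 and TASOR, went from 6026 ± 691 to 1240 ± 35.7 and from 4236 ± 786 to 1052 ± 42.7. Morc1, which represses retroelements in the male germline, went from 1814 ± 629 to 4.34 ± 3.10, a log2 fold change of -8.57 ± 0.52. The third HUSH subunit gene, Pphln1, rose (1265 to 2132, 0.76 on the log2 scale), and is named after its value was seen. Mphosph8 and Fam208a both lie on chromosome 14, where the median log2 fold change of tested genes was -0.57.

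Among 11 tested HP1 genes and partners, 6 were lower, 1 higher and 4 not called, beside 38.3% lower and 35.2% higher over all tested genes. The median was -0.32, and -0.54 with quantile normalization and -0.71 with chromosome centring. The lamin B receptor gene Lbr, whose product tethers HP1 to the nuclear envelope, went from 8552 ± 372 to 1929 ± 65.1. The HP1-binding protein gene Pogz went from 2992 ± 130 to 1245 ± 45.2. Sp100 was the 1 that rose (14.1 to 174), named after its value was seen. Of 12 genes of the ATRX, DAXX and H3.3 list, 4 were higher, 4 lower and 4 not called, with a median of -0.09 (-0.28 with quantile normalization). H3f3a, 1 of the genes that encode histone H3.3, went from 4137 ± 889 to 1495 ± 63.0, while H3f3b, which encodes the same protein, had a log2 fold change of -0.01 (adjusted p = 0.919 in limma). H3f3b is named after its value was seen. Dek, a chromatin protein that acts as an H3.3 chaperone, went from 8627 ± 1245 to 4036 ± 364.

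Of 10 tested H3K9 methyltransferase genes and their partners, 4 were lower, 2 higher and 4 not called, beside the same 38.3% lower and 35.2% higher of all tested genes. The median was -0.14, and -0.35 with quantile normalization and 0.00 with chromosome centring. Besides Suv39h2, the smallest p belonged to Prdm16 (280 ± 37.1 to 15.7 ± 1.26, -4.07 on the log2 scale) and Mecom (29.1 ± 9.69 to 348 ± 56.7, 3.57), PR-domain genes that moved in opposite directions. Of 10 H3K9 demethylase genes, 3 were higher, 2 lower and 5 not called, with a median of 0.08 (-0.10 with quantile normalization, 0.16 with chromosome centring). Phf2 rose from 280 ± 35.1 to 1271 ± 88.4, and Kdm1a and Kdm4c went from 8543 ± 902 to 3358 ± 174 and from 3949 ± 470 to 1964 ± 51.8. In the DNA methylation list 6 of 10 were lower, 2 higher and 2 not called, with a median of -0.79. Dnmt3l, the cofactor of de novo methylation, went from 2404 ± 577 to 3.28 ± 0.629, and the de novo enzymes Dnmt3b and Dnmt3a had log2 fold changes of -5.47 ± 0.21 and -2.86 ± 0.14. The maintenance enzyme Dnmt1 had -0.43 and its partner Uhrf1 0.11 (not called), and the methyl-CpG reader gene Mbd1 rose by 1.20, all named after their values were seen.

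**Figure D5:**
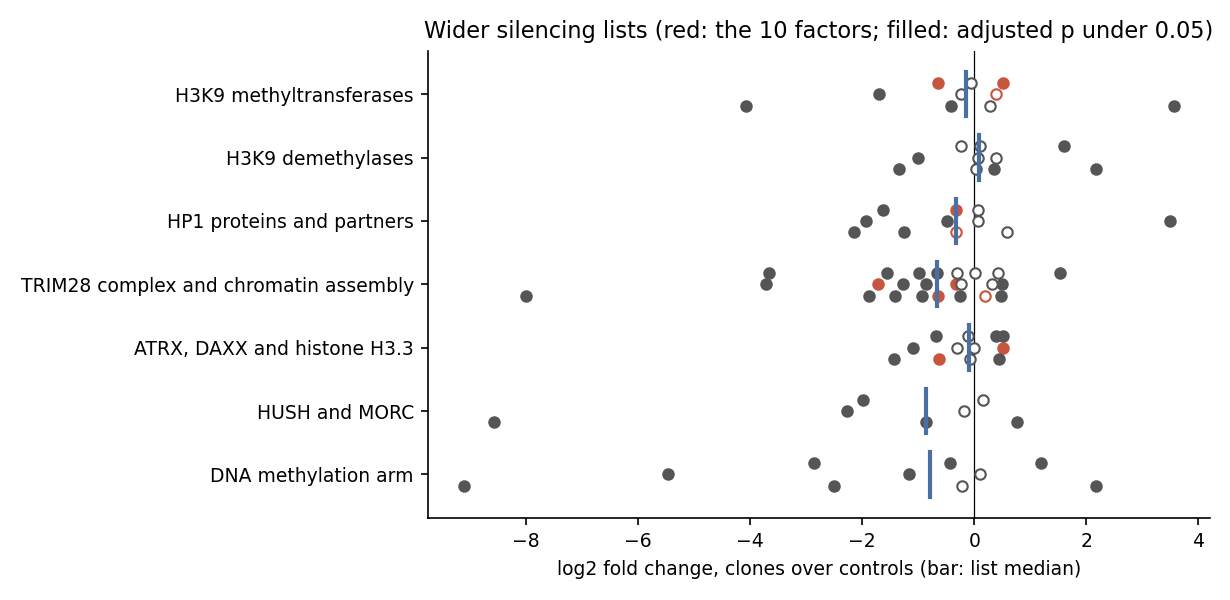
Log2 fold change of every tested gene in 7 lists of silencing factors and genes tied to them, with the 10 described genes in red, filled points where the adjusted p was under 0.05, and a bar at each list median. The list medians run from -0.87 (HUSH and MORC) to 0.08 (H3K9 demethylases), and the red points lie nearer to 0 than the most changed genes of each list that holds them.

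Genes of the 2-cell-like state, germline genes and imprinted genes were read as 3 further lists. Some genes of these classes are silenced by such factors, but whether those listed depend on the 10 members was not tested. Of 26 genes typical of cells resembling the 2-cell embryo, 3 were in the table and 2 could be tested. Both were higher, beside 35.2% of all tested genes: Zfp750 (230 ± 4.82 to 707 ± 47.6) and Sp110 (a log2 fold change of 3.37 ± 0.35, with 60.2 ± 15.4 in the clones). The rest of the list, Dux among them, could not be tested, so these 2 genes do not stand for the list. Of 22 tested germline genes, 21 were lower and 1 was higher, with a median of -6.68, or -5.53 with genes at 0 in the clones set to the bound of 3 reads per library. For Tex19.1 the control libraries gave 2999 reads and the clone libraries 1, which is a ratio of 3271 (95% interval 587 to 129199, for counting error only). Stk31 had 1066 and 1 (1161, interval 208 to 45846), and Mael, with no read in the clones, was at least 63.6-fold lower. The germline gene that rose was Brdt (39.6 to 66.5), named after its value was seen. Of 41 tested imprinted genes, among them loci that ZFP57 and TRIM28 protect, 15 were higher, 16 lower and 10 not called. Their median was -0.21, and 0.27 with quantile normalization. These counts too stand beside 38.3% lower and 35.2% higher of all tested genes. The smallest p belonged to Peg13 (a log2 fold change of 4.04 ± 0.14, with 1514 ± 37.7 in the clones), H13 (1015 ± 58.6 to 5486 ± 354) and Mest (2437 ± 620 to 122 ± 7.04). The table counts genes only, and retroelement transcripts were not analysed here.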

How the data were processed

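Poly(A) RNA of 3 control and 3 shEXOSC2 libraries was measured, from 500 ng of total RNA with a stranded TruSeq kit and 8 PCR cycles, per the labels' protocols. Per the submitters' processing notes, which give no settings, the tools were cutadapt 1.6, STAR 2.5.0a, HTSeq 0.5.3 and DESeq 1.22.1, with build mm10. The deposited values are a signal: read counts per gene that the authors scaled by DESeq size factors, per the file header. The sources used here do not give whether counting used the strand, which leaves genes that overlap on opposite strands uncertain. In each library 100.0% of values were whole multiples of 1 step within 0.001 read, so whole reads were recovered (in control 3 and clone 5 that step is within about 1% of 1). No gene had fewer than 15 reads in all.

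Of the 17912 genes, 17860 (99.71%) matched GENCODE M21 (GRCm38, the assembly of mm10), which gave positions, lengths and GC content. Promoter sequences are RefSeq's (GRCm38.p6). The members and gene lists were chosen with earlier results of these data known. The test was limma 3.58.1 (lmFit and trended eBayes) applied to log2(value + 1), keeping genes whose mean was at least 10. Benjamini-Hochberg adjustment was over all genes tested. The test was also run on simulated data with known scaling, where few genes were changed, equally up and down. These data differ from that setting, and the run did not test their scaling. Shares and ratios were compared by exact two-sided permutation tests. Named genes were all members, Exosc2, the closest paralogues, the 3 genes of smallest p in each list and the 3 genes most like Trim28. The alternatives changed the pseudocount (0.5 or 5), the filter (none, or means of 50 and above), the scaling (quantile or TMM), the variance model (eBayes without a trend) or the test (DESeq2 1.42.0 and edgeR 4.0.16, run on the recovered reads). Others were chromosome centring (chromosome medians subtracted), GC centring (subtracting a lowess trend, span 0.3, added after the data were seen) and leaving out each library. Software was Python 3.11.15 (scipy 1.17.1, matplotlib 3.10.9, numpy 2.4.6 and pandas 2.3.3) and R 4.3.3.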

Additional observations from a re-analysis of the deposited data

How the results depend on the processing

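The number of members called lower was 5. It was 3 with eBayes without a trend, 4 with GC centring and 6 with quantile normalization or chromosome centring, and 3 to 5 when single libraries were left out (3 without control 1, clone 6 or clone 7). The number called higher was 2, or 3 with GC centring and without control 1, control 2 or clone 5. Chromosome centring turned the sign of 3 values: Atf7ip to -0.19, Ehmt1 to 0.01 and Setdb2 to 0.17. The rise in the Cbx3 share of the HP1 sum was 5.66 percentage points by summed exon length, 9.25 by longest transcript and 3.67 by coding length. For the Suv39h1 share it was 33.6, 27.9 and 30.2 points. No paired analysis was possible because the groups share no replicate numbers (controls 1 to 3, clones 5 to 7). With 3 libraries a group, intervals for Atf7ip, Ehmt2 and Cbx5 include 0 and allow changes of up to 0.45, 0.80 and -0.71 on the log2 scale.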
